A study of Rattus norvegicus with 12 samples.

Results

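Smooth muscle contractile genes encode the actin, myosin and actin-binding proteins with which the muscle cells of arteries, veins and airways shorten. The members here are the 10 genes Acta2, Actg2, Myh11, Tagln, Cnn1, Des, Smtn, Lmod1, Mylk and Synpo2. They were found by symbol in the 19230 rows of the deposited table, where a row can hold 1 gene or several merged genes. All 10 have a row and passed the filter on low values. Myh11 shares its row with Fopnl, so reads of Fopnl and Myh11 cannot be told apart.

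RNA of Sprague-Dawley rats was sequenced in 12 libraries, with 3 in each of 4 groups. Lung of wild-type (WT) rats kept in normoxia carries the day label 0. WT lung and Ahr-KO lung were taken at day 4 of SuHx, the combination of the VEGF receptor inhibitor Sugen with hypoxia that is used to model pulmonary hypertension. The last group is WT endothelial cells (ECs) in normoxia, with the day label 4 in the sample labels but 0 in the column names. Ahr encodes the aryl hydrocarbon receptor, a transcription factor that is switched on by small molecules. No Ahr-KO lung in normoxia was analysed here, so genotypes were compared under SuHx only. The sources used here do not give how the knockout was made, how ECs were isolated or whether the libraries come from separate rats. The p-values therefore measure the spread between these libraries, which may be technical. Libraries are named by group and by the suffix 0, 1 or 2 of their column, which is not the replicate number of the sample titles.

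In smooth muscle, a rise in calcium switches on myosin light chain kinase, which phosphorylates the regulatory light chain and lets myosin pull on actin filaments. Serum response factor (SRF) with its coactivator myocardin drives many contractile genes through a DNA motif called the CArG box. In the lung these proteins mark the media of arteries, the airway muscle and some contractile interstitial cells. In pulmonary hypertension small arteries become muscular, which is why these genes are widely used as markers of vessel remodelling.

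Promoter sequences are shown for the 2 smooth muscle actins and for Mylk, because under SuHx the actins were among the members that rose most while Mylk did not pass the test. RefSeq's promoter table for the rat build GRCr8 matched 7 of the 10 members, with no entry for Myh11, Tagln and Lmod1. Its coordinates belong to GRCr8 and not to rn6, the build named in the submitters' processing notes. Each line gives the 250 bases before the annotated start, 5′ to 3′ on the gene's own strand, which is the minus strand for all 3. Capitals mark the sequence MCAT (CATTCC, or GGAATG on the other strand) and CArG boxes with 1 mismatch among their inner A or T letters.
Acta2, chr1:241172504-241172753: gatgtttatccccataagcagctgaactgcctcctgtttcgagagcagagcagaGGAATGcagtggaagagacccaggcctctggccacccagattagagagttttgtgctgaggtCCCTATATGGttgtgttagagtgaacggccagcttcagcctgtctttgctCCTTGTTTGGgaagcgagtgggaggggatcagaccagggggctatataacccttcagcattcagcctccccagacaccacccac
Actg2, chr4:117594040-117594289: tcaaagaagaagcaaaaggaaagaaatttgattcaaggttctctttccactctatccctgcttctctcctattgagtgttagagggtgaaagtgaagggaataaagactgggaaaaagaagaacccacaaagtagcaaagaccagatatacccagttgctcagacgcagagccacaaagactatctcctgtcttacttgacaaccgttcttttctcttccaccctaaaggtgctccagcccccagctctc
Mylk, chr11:79498575-79498824: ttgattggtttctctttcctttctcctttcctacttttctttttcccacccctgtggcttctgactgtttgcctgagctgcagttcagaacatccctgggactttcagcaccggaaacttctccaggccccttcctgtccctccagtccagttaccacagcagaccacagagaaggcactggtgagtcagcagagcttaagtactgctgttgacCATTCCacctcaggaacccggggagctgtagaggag
In the table's window of 300 bases, which adds 50 bases after the start, an exact CArG box was found in 0 of the 7 members and in 1.64% of 33469 promoters, both strands searched. A CArG box with 1 inner mismatch was found in 1 member, Acta2, with matches CCCTATATGG at -134 and CCTTGTTTGG at -84, and in 8.10% of promoters. MCAT was found in 2 members, Acta2 at -196 and Mylk at -36, and in 14.2% of promoters. An E box (CANNTG) was found in 6 of 7 members and in 72.1% of promoters. These are matches of letters in a short window.

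Depth was similar across libraries, from 20.04 to 28.6 M reads. The unit of the table is a signal, which is a read count divided by 1 factor per library, so that 1 read is worth 0.745 to 1.25. Ahr itself had signals of 2515, 2523 and 1800.0 in the SuHx libraries labelled Ahr-KO and 1996, 3073 and 1739.6 in WT SuHx lung, a log2 difference of 0.03. Where the gene was altered is not stated, so its RNA level does not check the label. Cyp1a1, a standard target gene of Ahr, was 65459, 68888 and 75070.5 in WT SuHx lung and 3.87, 5.31 and 5.32 in Ahr-KO SuHx lung (log2 difference -13.55, limma adjusted p = 2.08e-05). In the ECs all 15 of 15 endothelial markers were higher than in normoxia lung, in a comparison where 26.1% of all genes were called higher. RNA of cardiac muscle markers differed between libraries, with a summed signal over 13 genes of 12984 in normoxia library 2 and 28401 in Ahr-KO SuHx library 2. The others ranged from 845 to 1638 in normoxia, from 2729 to 3592 in WT SuHx and from 5869 to 7485 in Ahr-KO SuHx. Actc1 gave most of the sum in WT SuHx, with 2751, 2227 and 1959. It was 903, 267 and 3390 in normoxia and 3648, 3346 and 6273 in Ahr-KO SuHx. The sum also includes a merged row of Tnni3 and Dnaaf3, whose reads cannot be told apart. That row was 612, 476 and 1292 in normoxia and 581, 533 and 550 in WT SuHx. Myh6, Nppa and Myl2 were at 0 in all 3 WT SuHx libraries. Airway epithelial markers were also highest in Ahr-KO SuHx library 2, at 266997 against 152939 and 158501 in the other Ahr-KO libraries.

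Day 4 of SuHx in WT lung came with higher RNA of 6 of the 10 contractile genes. Acta2, Actg2, Tagln, Cnn1, Des and Smtn rose by 1.67-fold to 3.33-fold, and 0 fell. Myh11, Lmod1, Mylk and Synpo2 did not pass the test. The test was limma on log2(signal + 1), the scale of every fold change given here, and a gene was called when its p, adjusted by Benjamini-Hochberg over 15234 genes, was under 0.05. Of all genes tested, 7.08% were called higher and 6.39% lower. The median log2 fold change was 0.97 over the 10 members and -0.04 over all genes.

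**Figure D1:**
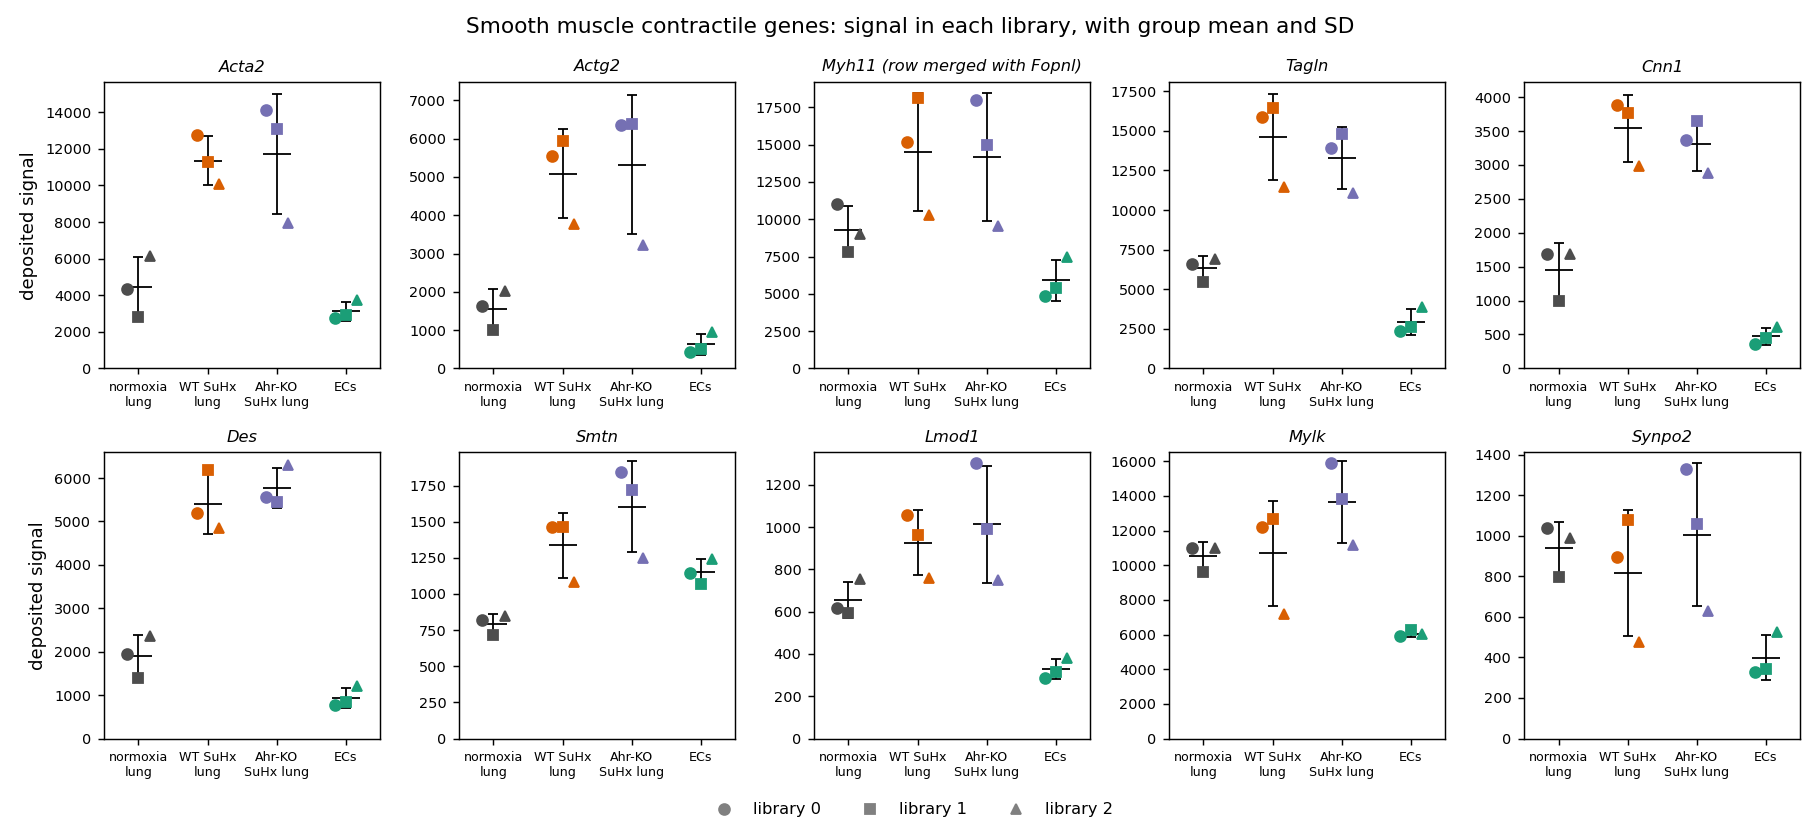
Signal of each of the 10 contractile genes in every library (1 panel per gene, linear axis from 0, signal units), with points for libraries, a horizontal line for the group mean and bars for the SD (n = 3). For Acta2, Actg2, Tagln, Cnn1, Des and Smtn the 3 WT SuHx libraries lie above the 3 normoxia libraries.

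The 2 smooth muscle actins form the thin filament on which myosin pulls. Acta2, the alpha actin of vascular smooth muscle, had signals of 4340.5, 2815 and 6134 in normoxia libraries 0, 1 and 2. In WT SuHx libraries 0, 1 and 2 it was 12755, 11263 and 10073. Each SuHx library was thus above each normoxia library, and the spread was wider in normoxia (4429.8 ± 1661 against 11364 ± 1344, SD, n = 3). The log2 fold change was 1.42 ± 0.29 (SE), or 2.68-fold, with a limma adjusted p of 0.0137. Without WT SuHx library 0 that p was 0.0561, and with no filter on low values 0.0526. Actg2, the gamma actin that is most abundant in visceral muscle, was 1640.4, 1005 and 2028 in normoxia and 5552, 5947 and 3759 in WT SuHx. The groups did not overlap. In all, 7 members had every WT SuHx library above normoxia and 0 had every one below, against 17% and 19.7% of all genes. The log2 fold change of Actg2, 1.74 ± 0.32, was the highest of the members (3.33-fold, limma adjusted p = 0.00954).

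Among the proteins that bind or crosslink actin, Tagln, which encodes transgelin (SM22), was 6594, 5481 and 6927 in normoxia and 15873, 16429 and 11472 in WT SuHx. The log2 fold change was 1.19 ± 0.17 (2.29-fold, limma adjusted p = 0.00287), with no overlap. Cnn1 encodes calponin, which inhibits the myosin ATPase on the thin filament. Its signals were 1683, 991 and 1689 in normoxia and 3885, 3763 and 2978 in WT SuHx, a log2 fold change of 1.32 ± 0.21 (2.49-fold, limma adjusted p = 0.00409). Here too all SuHx libraries were the higher ones. Smtn, which encodes smoothelin, a protein of contractile actin filaments, was 817, 719 and 848 in normoxia and 1463, 1466 and 1079 in WT SuHx. The groups did not overlap and the log2 fold change was the smallest of the 6 called, 0.74 ± 0.17 (1.67-fold, limma adjusted p = 0.0224). Its call was lost without normoxia library 0 (adjusted p = 0.0636), normoxia library 1 (0.0739), WT SuHx library 0 (0.0840) or WT SuHx library 1 (0.0519), and with no filter on low values (0.0625).

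Des encodes desmin, the intermediate filament protein of muscle, which cardiac and skeletal muscle also make. Its signals were 1953, 1392 and 2354 in normoxia and 5190.3, 6187 and 4858 in WT SuHx. The lowest SuHx library was above the highest normoxia library, and the log2 fold change was 1.54 ± 0.18 (2.90-fold, limma adjusted p = 0.00103). Since cardiac marker RNA was highest in normoxia library 2 and Ahr-KO SuHx library 2, the value was also taken without both, which gave a log2 fold change of 1.71 for Des.

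For the motor and its activating kinase no call was made. Myh11 encodes the smooth muscle myosin heavy chain, and the Fopnl and Myh11 row was 11000.0, 7819.9 and 9016 in normoxia. In WT SuHx it was 15158, 18125 and 10257. WT SuHx library 2 lay inside the normoxia range, and the log2 fold change of 0.62 ± 0.27 had a 95% interval of 0.02 to 1.22 and a limma adjusted p of 0.147. Mylk, the myosin light chain kinase gene, was 10977, 9617 and 11020.3 in normoxia and 12183, 12653 and 7206 in WT SuHx. Its libraries 0 and 1 were above normoxia and library 2 was below, and the difference of -0.02 ± 0.22 on the log2 scale has a 95% interval of -0.51 to 0.47.

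Lmod1 encodes leiomodin, which starts new actin filaments in smooth muscle. Its signals were 617, 595 and 754 in normoxia and 1059, 961 and 761 in WT SuHx. The groups did not overlap, with library 2 of WT SuHx only just above normoxia library 2, and the log2 difference of 0.49 ± 0.20 had a 95% interval of 0.04 to 0.95 and did not pass the test (limma adjusted p = 0.130). With Myh11 and Lmod1, 8 of the 10 members had an unadjusted p under 0.05. The share of all genes at that unadjusted p was not counted, here or for the later counts of this kind. After adjustment 13.5% of all genes were called in this comparison, both directions together. Synpo2, which encodes an actin-bundling protein of the muscle Z-disc, was 1039.8, 798 and 988 in normoxia and 895, 1077 and 474 in WT SuHx. Its lowest value was again that of WT SuHx library 2, and the log2 difference of -0.28 ± 0.33 has a 95% interval of -1.02 to 0.46.

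**Figure D2:**
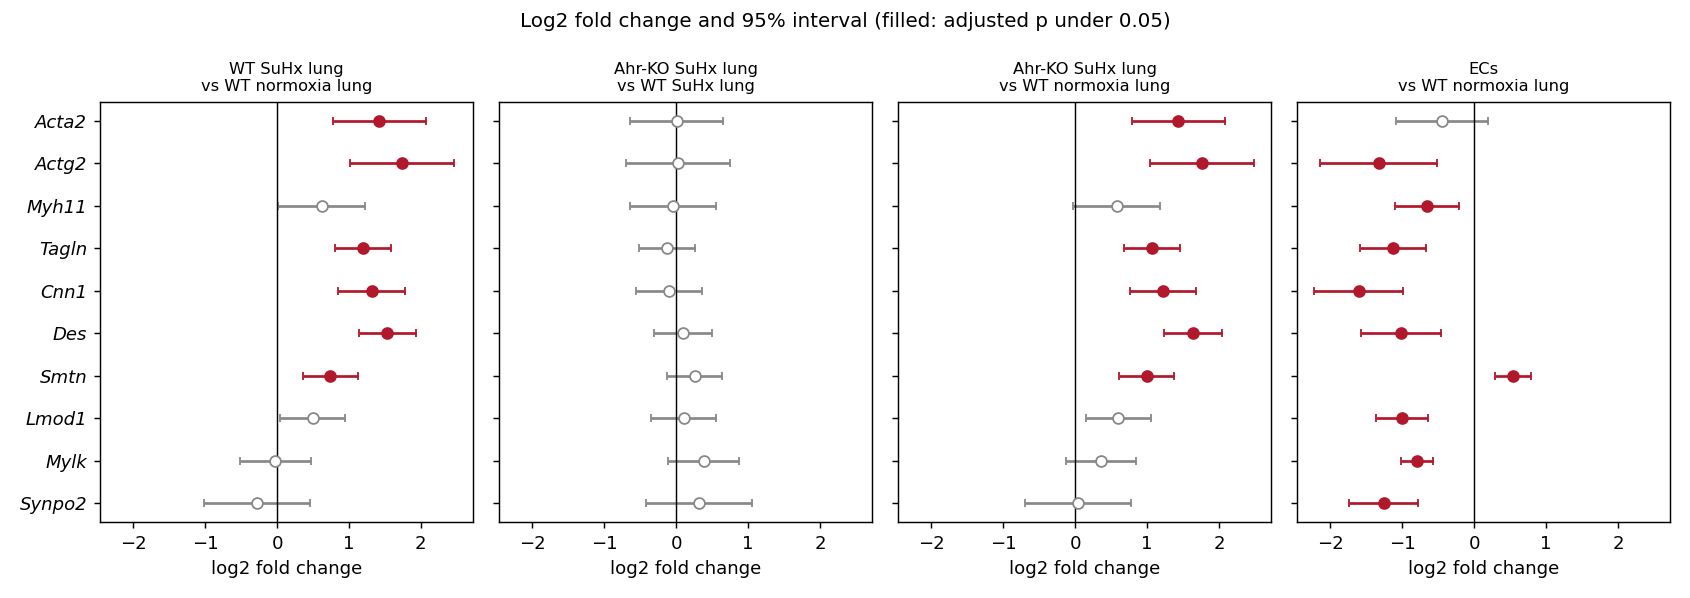
Log2 fold change of the 10 contractile genes in each comparison, with points for the limma estimate (filled where the adjusted p was under 0.05) and bars for its 95% confidence interval. The intervals of Ahr-KO SuHx against WT SuHx all include 0, while those of Acta2, Actg2, Tagln, Cnn1, Des and Smtn lie above 0 for both SuHx groups against normoxia. Those of Lmod1 in both SuHx groups and of Myh11 in WT SuHx also lie above 0, with open points because the adjusted p was not under 0.05.

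Within a group the members tended to be high or low in the same library. All 10 members were lowest of their group in normoxia library 1, and all 10 were lowest in WT SuHx library 2. In Ahr-KO SuHx library 2, 9 of 10 were lowest and Des was highest. The median over members of the log2 difference from the normoxia mean was 0.07, -0.23 and 0.17 in the 3 normoxia libraries. It was 1.11, 1.18 and 0.65 in WT SuHx and 1.18, 1.17 and 0.74 in Ahr-KO SuHx. Over the 9 lung libraries the 45 pairs of members had Pearson correlations of log2(signal + 1) from -0.04 to 0.99, with a median of 0.85. The highest was between Acta2 and Actg2, and the lowest between Des and Synpo2. For deviations from the group means the range was 0.20 to 0.97, with a median of 0.80, where the lowest was between Des and Lmod1. These libraries share a scaling factor and tissue piece for all members, so the correlations describe the libraries and are not a test.

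**Figure D3:**
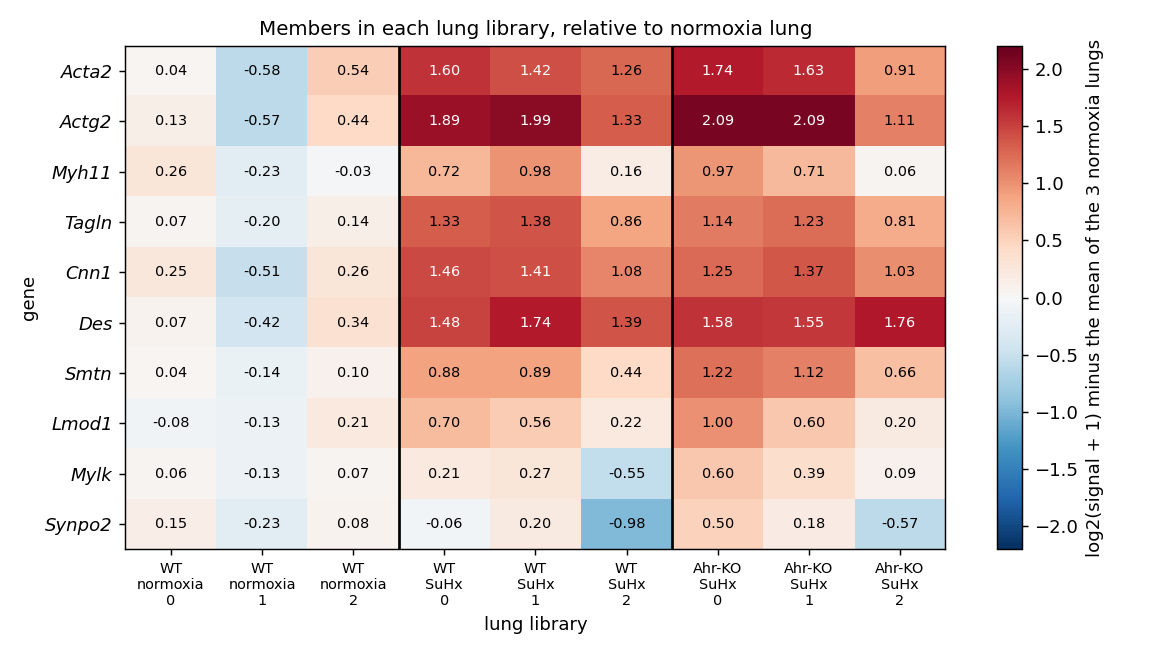
Log2(signal + 1) of each contractile gene in each of the 9 lung libraries, minus the mean of the 3 normoxia libraries, as colour and number. Library 2 of WT SuHx holds the lowest value of its group in every row, and Des is the one gene that is highest in library 2 of Ahr-KO SuHx.

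Ahr-KO lung was compared with WT lung at the same day of SuHx. Of the 10 members 0 were called, and 0 had an unadjusted p under 0.05, while 0.499% of all genes were called by limma (0.197% higher, 0.302% lower). The largest log2 differences were 0.38 ± 0.22 for Mylk and 0.32 ± 0.33 for Synpo2, and the lowest was -0.13 ± 0.17 for Tagln. No member had groups that did not overlap, while 11.7% of all genes had every Ahr-KO library above the WT SuHx ones and 10.2% had every one below.

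Acta2 was 14117, 13078 and 7950.1 in the 3 Ahr-KO SuHx libraries, and Actg2 was 6362, 6374 and 3229. For both genes library 2 was the low one and lay below every WT SuHx library. The Ahr-KO level relative to WT was 1.00-fold for Acta2 with a 95% interval of 0.642 to 1.57, and 1.02-fold for Actg2 with an interval of 0.615 to 1.69. Differences within those intervals were not excluded by these libraries.

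The actin-binding members did not pass the test either. Tagln was 13930.0, 14813 and 11087, with a ratio to WT SuHx of 0.914 and a 95% interval of 0.699 to 1.20. Cnn1 was 3372, 3654 and 2887, with a ratio of 0.935 and an interval of 0.679 to 1.29. Neither gene had an Ahr-KO library above the highest WT SuHx library. Smtn was 1846, 1719 and 1249.7, and its libraries 0 and 1 exceeded all WT SuHx libraries while library 2 did not. Its ratio was 1.20 with an interval of 0.918 to 1.56.

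For the motor and the remaining members, the Fopnl and Myh11 row was 17995, 14985 and 9557, with a ratio of 0.971 and an interval of 0.639 to 1.47. Mylk was 15909, 13798 and 11172, with a ratio of 1.30 and an interval of 0.928 to 1.83. Its library 2 lay within the WT SuHx range and the other libraries above it. Lmod1 was 1303, 989 and 749 and Synpo2 was 1328, 1058 and 629.9, with ratios of 1.08 (interval 0.784 to 1.48) and 1.25 (interval 0.747 to 2.08). Both genes had their lowest value in library 2.

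Des was 5559, 5446 and 6309 in Ahr-KO SuHx, and the ratio to WT SuHx was 1.07 with an interval of 0.810 to 1.41. Its highest value came from the library with the highest cardiac marker sum, 28401. With cardiac marker level added as a covariate the log2 difference of Des was -0.27, and without Ahr-KO SuHx library 2 it was 0.03. Neither value passed the test. The cardiac marker sum was 2729 to 3592 in WT SuHx and 5869 to 28401 in Ahr-KO SuHx. Covariate and genotype thus cannot be fully told apart, here or elsewhere in this comparison.

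Against normoxia, Ahr-KO SuHx lung was compared with the same 3 normoxia libraries as WT SuHx lung, so both comparisons share their controls. Here again 6 members were called higher and 0 lower, while 5.95% of all genes were higher and 3.8% lower, 9.75% together. They were Actg2 at 1.76 ± 0.32 on the log2 scale (limma adjusted p = 0.00945), Des at 1.63 ± 0.18 (0.000596), Acta2 at 1.43 ± 0.29 (0.0147), Cnn1 at 1.22 ± 0.21 (0.00634), Tagln at 1.06 ± 0.17 (0.00509) and Smtn at 1.00 ± 0.17 (0.00660). Side by side, the WT SuHx values were 1.74 for Actg2, 1.54 for Des, 1.42 for Acta2, 1.32 for Cnn1, 1.19 for Tagln and 0.74 for Smtn. For 7 members, the 6 called and Mylk, every Ahr-KO library was above normoxia, and for 0 below, against 15.1% and 17.9% of all genes. In Mylk the log2 difference of 0.36 ± 0.22 did not pass the test. Lmod1 at 0.60 ± 0.20 (limma adjusted p = 0.0979), Myh11 at 0.58 ± 0.27 (0.210) and Synpo2 at 0.04 ± 0.33 did not pass it either. The 95% interval of Lmod1 was 0.14 to 1.06, and 7 members, the 6 called and Lmod1, had an unadjusted p under 0.05. The Acta2 call was lost without Ahr-KO SuHx library 0 (adjusted p = 0.0529) or library 1 (0.0628), and with no filter on low values (0.0585). With the cardiac marker level as a covariate, the p was 0.0992 for Acta2 and 0.0625 for Actg2. Without Ahr-KO SuHx library 2, Lmod1 was called (adjusted p = 0.0405).

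Other genes of the contractile apparatus were counted from a list of 22. In WT SuHx lung 8 were higher than in normoxia and 0 lower, with a median log2 fold change of 0.40. Of all genes 7.08% were higher and 6.39% lower. Tpm2, a tropomyosin that lines the actin filament, was 2628, 2149 and 2829 in normoxia and 7557, 6829 and 8132 in WT SuHx (1.57 ± 0.13, limma adjusted p = 0.000283). Its groups did not overlap. Myl9, the regulatory light chain, shares a row with Dlgap4 and was 6885, 7401 and 6236 in normoxia and 12077, 11722 and 9931 in WT SuHx (0.72 ± 0.12, limma adjusted p = 0.00600). Pdlim7, a scaffold of actin filaments in a row with Dbn1, changed by 0.89 ± 0.12, and Mustn1, in a row with Tmem110, by 0.63 ± 0.10. Tpm1, Cald1, Myl6 and Kcnmb1 were the others called. In Ahr-KO SuHx lung 6 of the 22 were higher than in normoxia and 0 lower, with a median of 0.49, against 5.95% and 3.8% of all genes. Against WT SuHx, 0 of the 22 were called by limma in Ahr-KO lung, with 7 at an unadjusted p under 0.05. The smallest adjusted p was that of Hspb6, a small heat shock protein gene, with 597, 517 and 480.2 in WT SuHx and 765, 756 and 778 in Ahr-KO SuHx (0.53 ± 0.11, limma adjusted p = 0.0810). In 9 of the 22, Hspb6 among them, every Ahr-KO library was above WT SuHx, and in 2, Mustn1 (-0.36 ± 0.10, 0.164) and Tpm2 (-0.34 ± 0.13, 0.292), every one was below, against 11.7% and 10.2% of all genes. Hspb6 was chosen after its values were seen. The 9 also include Casq2 and Ldb3, which were highest in the 2 libraries with most cardiac marker RNA. In normoxia library 2 and Ahr-KO SuHx library 2, Casq2 was 316 and 663 and Ldb3 was 459 and 787. Of 13 cardiac markers, 10 had every Ahr-KO library above WT SuHx. The part of cardiac RNA in the count of 9 was not tested. Over the 20 alternative settings 6 to 10 of the 22 were higher in WT SuHx lung and 6 to 9 in Ahr-KO SuHx lung against normoxia, and 0 were called between Ahr-KO and WT SuHx. Up to 2 were lower in WT SuHx lung, and 0 in Ahr-KO SuHx lung.

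Regulators of contraction, a list of 15 genes, gave 0 calls in WT SuHx lung by limma, with 3 at an unadjusted p under 0.05. In Ahr-KO SuHx lung Arhgef1, which encodes a guanine nucleotide exchange factor, was lower than in normoxia (-0.58 ± 0.12, limma adjusted p = 0.0156). In that comparison 3.8% of all genes were lower. No gene of the list was lower without normoxia library 0, Ahr-KO SuHx library 1 or library 2, or with the cardiac covariate. Between Ahr-KO and WT SuHx 0 of the 15 were called, with 2 at an unadjusted p under 0.05.

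The list of SRF and myocardin family regulators, 13 genes in 11 rows, also holds other factors such as Klf4, Mef2c and Foxf1. In WT SuHx lung, where 7.08% of all genes were higher and 6.39% lower, 1 of its rows was called. That was Prrx1, a homeobox factor of mesenchymal cells, with 104, 79.3 and 165 in normoxia and 229.9, 351 and 221 in WT SuHx (1.23 ± 0.33, limma adjusted p = 0.0368). That call was lost without normoxia library 0 or 1, any WT SuHx library, or Ahr-KO SuHx library 0 or 1, and also without limma's mean-variance trend and with no filter on low values. Srf was 1721, 1688 and 1750.2 in normoxia, 1693, 1560.2 and 1664 in WT SuHx and 2281, 2085 and 2144 in Ahr-KO SuHx. The Ahr-KO libraries were above all other lung libraries, with 0.33 ± 0.077 against normoxia (limma adjusted p = 0.0255) and 0.40 ± 0.077 against WT SuHx, which did not pass the test (0.0606). In Ahr-KO SuHx against normoxia 2 of the 11 rows were called higher, where 5.95% of all genes were higher. The number was 0 without normoxia library 0, normoxia library 1 or Ahr-KO SuHx library 2 or with the cardiac covariate. Of the 11 rows 0 were called between Ahr-KO and WT SuHx by limma, with 2 at an unadjusted p under 0.05. Myocd, the gene of myocardin, was 206, 106 and 253 in normoxia and 208, 230.2 and 148 in WT SuHx, with overlapping groups and a log2 difference of 0.12 ± 0.33. It is named outside the rule for named genes because it encodes the coactivator introduced above.

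Genes linked to the synthetic state of smooth muscle, in which the cell makes matrix, were counted from a list of 14. In WT SuHx lung 4 were higher and 0 lower, with a median of 0.51, against 7.08% and 6.39% of all genes. In Ahr-KO SuHx lung 6 were higher and 0 lower, with a median of 0.73, against 5.95% and 3.8% of all genes. The number called higher ranged from 2 to 10 in both comparisons over the 20 alternatives. In WT SuHx lung it was 2 without WT SuHx library 0 or with no filter on low values, 7 without Ahr-KO SuHx library 2 and 10 with the library suffix as a replicate block. In Ahr-KO SuHx lung it was 2 without Ahr-KO SuHx library 1 or with the cardiac covariate, and 10 with the block. Eln, the elastin gene, was 17387, 4698 and 27990.0 in normoxia and 148981, 135336 and 168962 in WT SuHx (3.51 ± 0.54, limma adjusted p = 0.00380). Vcan, the gene of the proteoglycan versican, was 403, 347 and 587 in normoxia, 1005, 1034 and 1115 in WT SuHx and 1671, 2418 and 2155 in Ahr-KO SuHx. Its Ahr-KO libraries were above the WT SuHx ones, but the difference of 0.97 ± 0.20 did not pass the test (limma adjusted p = 0.0769). Fn1 and Tnc were the other genes called in WT SuHx lung. Between Ahr-KO and WT SuHx 0 of the 14 were called by limma, with 2 at an unadjusted p under 0.05, and 1 was called higher without normoxia library 2.

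**Figure D4:**
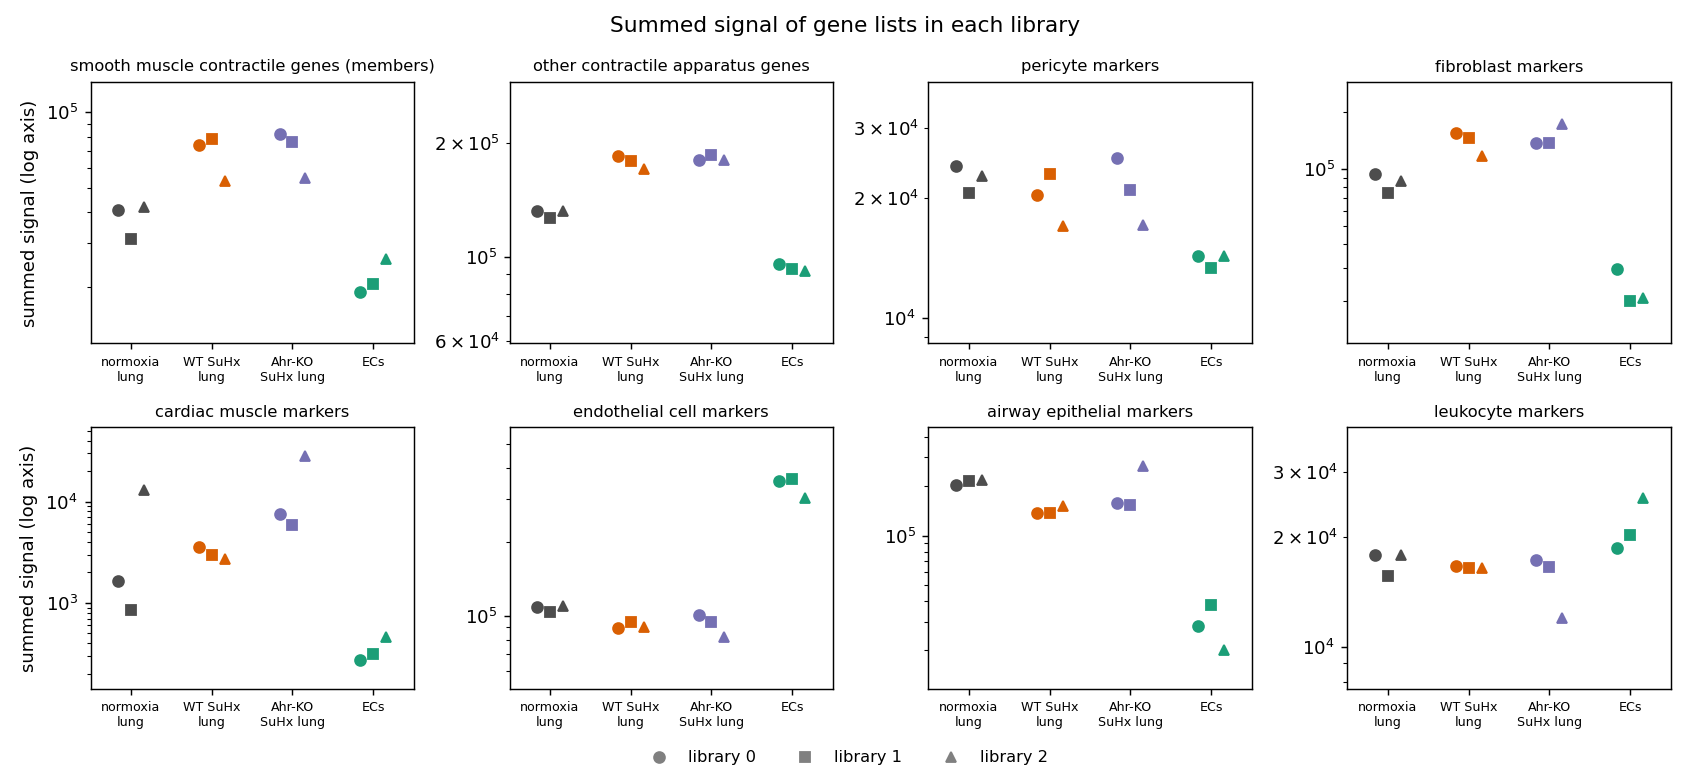
Summed signal of 8 gene lists in every library (1 panel per list, signal units, log axis), with points for libraries by group. The contractile genes sum to 31232 to 41758 in normoxia and to 52918 to 77872 in WT SuHx, and the cardiac markers stand apart in library 2 of normoxia and of Ahr-KO SuHx.

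Markers of other cell types were counted in the same fit, where 7.08% of all genes were higher and 6.39% lower in WT SuHx lung. Of 12 fibroblast markers 4 were higher in WT SuHx lung and 0 lower, with Col1a1, the type I collagen gene, at 9834, 5590.3 and 14203 in normoxia and 30925, 28633 and 23606 in WT SuHx (1.58 ± 0.29, limma adjusted p = 0.00901). The fibroblast list summed to 74901 to 94169 in normoxia, 117394 to 154835 in WT SuHx and 136889 to 172426 in Ahr-KO SuHx, and no defining marker was at 0. Most of that sum was Col3a1, a collagen gene, with 62867, 52409 and 51266 in normoxia and 99398, 96057 and 71258 in WT SuHx. Over the 12 markers the median log2 fold change in WT SuHx lung was 0.23, from -0.60 for Dcn to 1.58 for Col1a1. The 4 fibroblast calls became 1 without normoxia library 0, normoxia library 1 or WT SuHx library 0 and with no filter on low values. They became 2 without WT SuHx library 2 or Ahr-KO SuHx library 1. Over the 20 alternatives up to 1 fibroblast marker was lower in WT SuHx lung. Of 10 pericyte markers 1 was higher, Higd1b (0.56 ± 0.12), and 1 lower, Rgs5 (-1.13 ± 0.22, limma adjusted p = 0.0120). Rgs5 was also the 1 pericyte marker called higher in ECs than in normoxia lung (0.85 ± 0.14). Without normoxia library 0, normoxia library 1 or WT SuHx library 0, no pericyte marker was called higher. The pericyte sum was 20639 to 24065 in normoxia and 17050.5 to 22969.6 in WT SuHx, which overlap. It includes a merged row of Csf1r, a macrophage gene, and Pdgfrb, whose reads cannot be told apart, with 10688, 9191 and 9666 in normoxia and 10066, 10025 and 8240.5 in WT SuHx. The part of these cells in the contractile gene result was not tested. In whole lung RNA, a change in the number of smooth muscle cells and a change in RNA per cell cannot be told apart. Of 10 skeletal muscle markers tested 1 was higher and 0 lower in WT SuHx lung, Acta1, the skeletal alpha actin, with 31.8, 11.9 and 57.5 in normoxia and 174, 126 and 85.6 in WT SuHx (2.09 ± 0.53, limma adjusted p = 0.0315). Of 12 airway epithelial markers 2 were lower, Sec14l3 at -1.23 ± 0.18 and Cyp2a3 at -3.18 ± 0.55, and of 15 endothelial markers 5 were lower and 2 higher. Acta1 was the one skeletal call, and 0 were called without normoxia library 0, normoxia library 1 or any 1 of the WT SuHx libraries. The endothelial markers lower in WT SuHx lung numbered 2 to 6 with a library left out. Cardiac markers gave 0 calls of 13 in WT SuHx lung by limma, with 0 at an unadjusted p under 0.05. Between Ahr-KO and WT SuHx they also gave 0 calls, with 8 at an unadjusted p under 0.05. These counts depended on normoxia library 2, without which 5 cardiac markers were called higher in Ahr-KO than in WT SuHx, 2 higher in WT SuHx than in normoxia and 10 higher in Ahr-KO SuHx than in normoxia. Without Ahr-KO SuHx library 2 as well, 7, 3 and 10 were called higher in those comparisons. With only the compared groups in the fit, 3 were called higher in Ahr-KO than in WT SuHx. With the cardiac level as a covariate 6 of the 10 contractile genes were called higher in WT SuHx lung and 4 in Ahr-KO SuHx lung against normoxia, where 9.43% and 3.01% of all genes were higher. Without both libraries that held most cardiac RNA 6 and 7 were called, against 8.69% and 5.43% of all genes.

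ECs were compared with normoxia lung to see how much contractile RNA they held. Of the 10 members 8 were lower in ECs and 1 higher, in a comparison where 30.1% of all genes were lower and 26.1% higher, 56.2% together. The groups did not overlap for the same 8 and 1 members, against 35.1% and 30.4% of all genes. The median log2 difference was -1.01 over the members and -0.05 over all genes. No member was at 0 in any EC library.

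Cnn1 had the largest difference, with 362, 449 and 607 in EC libraries 0, 1 and 2, or -1.61 ± 0.26 on the log2 scale (3.05-fold lower, limma adjusted p = 0.00175). Actg2 was 436, 511 and 941 (-1.33 ± 0.35, limma adjusted p = 0.0139), and its call was lost with no filter on low values (0.0618). All EC values of both genes were below the normoxia lungs. Tagln was 2378, 2591 and 3897 (-1.13 ± 0.19, limma adjusted p = 0.00226). Des was 763, 833 and 1208 (-1.02 ± 0.24, limma adjusted p = 0.00848). Synpo2 was 327, 345 and 525 and Lmod1 was 286, 317 and 381, and were 2.40-fold and 2.00-fold lower than in normoxia lung. EC library 2 was the highest of the 3 for all of these genes.

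Mylk was 5897, 6235 and 6026, with a narrow spread and a log2 difference of -0.80 ± 0.093 (limma adjusted p = 0.000409). The Fopnl and Myh11 row was 4868, 5409 and 7455, with a log2 difference of -0.66 ± 0.19 and a limma adjusted p of 0.0210, which was between 0.0510 and 0.0716 under 6 of the 16 alternative settings. Acta2 was 2746, 2910.2 and 3723, overlapping with normoxia lung, and the difference of -0.44 ± 0.27 did not pass the test (limma adjusted p = 0.201). Without normoxia library 1 it was -0.74 and was called (0.0203). Smtn was 1142, 1071 and 1244 and thus above all normoxia lungs, at 0.54 ± 0.10 (1.45-fold higher, limma adjusted p = 0.00399).

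Other mesenchymal genes in the ECs stand beside these values, in the comparison where 30.1% of all genes were lower and 26.1% higher. Of the 22 other contractile genes 11 were lower and 2 higher in ECs, with a median of -0.64. Itga8, an integrin subunit of smooth muscle and fibroblasts, was 302, 261 and 361 in ECs against 5457, 6147 and 5713 in normoxia lung (-4.23 ± 0.13). Of the 10 pericyte markers 8 were lower and 1 higher, with a median of -1.62. Of the 12 fibroblast markers 9 were lower and 1 higher, with a median of -2.88. The higher pericyte marker was Rgs5, with 7092, 7235 and 6186 in ECs and 3811, 3188 and 4440 in normoxia lung. The higher fibroblast marker was Meox1, with 206, 164 and 271 in ECs and 28.6, 16.2 and 23.8 in normoxia lung. In WT SuHx lung Rgs5 was called lower and Meox1 higher than in normoxia. Leukocyte markers were also measured in ECs, where 6 of 9 were higher than in lung and 2 lower. Of the 2 lower, 1 was the merged row of Csf1r and Pdgfrb (-1.52 ± 0.15), which is also counted among the lower pericyte markers. Of the list of SRF and myocardin family regulators, which also holds other factors, 8 of 11 rows were higher and 0 lower. Among them was Klf4, a repressor of contractile genes in vessel wall cells that ECs also express, at 3.29 ± 0.15. Srf was called at 1.03 ± 0.21, while Myocd at -0.49 ± 0.32 did not pass the test (limma adjusted p = 0.230). The part of other cells in the EC values was not tested.

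The genes whose pattern over the 9 lung libraries was most like that of the members were found among 12284 rows by their Pearson correlation with the mean of the members' scaled values. The first 10 were Mmp17 (0.973), Tspan18 (0.971), Bcar1 (0.966), Nid2 (0.966), Col4a2 (0.965), Sh3pxd2b (0.961), Adgrg3 (0.958), Afap1l2 (0.958), Pcsk5 (0.953) and Fam114a1l1 (0.951). For deviations from group means their correlations were 0.843 to 0.983. Of them limma called Col4a2, Adgrg3 and Afap1l2 higher in WT SuHx lung than in normoxia, where 7.08% of all genes were higher. Mmp17 was not called there (limma adjusted p = 0.172). In ECs against normoxia lung, Mmp17, Tspan18, Bcar1, Nid2, Col4a2 and Adgrg3 were called higher, the other way from 8 of the 10 members. Afap1l2 and Pcsk5 were called lower. In that comparison 26.1% of all genes were higher and 30.1% lower. Mmp17, a membrane-bound metalloproteinase gene, was 102, 72.4 and 128 in normoxia, 219, 214 and 103 in WT SuHx and 294, 276 and 155 in Ahr-KO SuHx. As in the members, library 1 was lowest in normoxia and library 2 lowest in both SuHx groups. Col4a2, a basement membrane collagen chain, was 21694, 18037 and 18249 in normoxia. It was 34418, 37191 and 24128 in WT SuHx and 39445, 36052 and 28738 in Ahr-KO SuHx. The correlations rest on 9 libraries that share their scaling with the members.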

How the data were processed

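Total RNA of lung tissue and ECs was extracted with Trizol, column purification and DNase, per the labels. The submitters' processing notes name rn6 and FastQC. The sources used here do not give the aligner, counter, normalization or strand. The deposited signal is an estimated read count that the authors divided by 1 factor per library, as read from the values: 80.9% to 81.7% of the values above 0 lay within 0.05 of a whole number of reads. Table columns carry a group and a suffix, and were assigned to groups by name. With limma 3.58.1 in R 4.3.3, log2(signal + 1) was fitted for genes whose mean signal reached 1, with a variance trend and two-sided tests. The 9 lung libraries entered 1 fit with 15234 genes, and ECs with normoxia lung another with 15186. Calls used an adjusted p under 0.05 over all genes tested. The script was tested on simulated data. The members and gene lists were chosen with earlier results of these data known. Of each list up to 4 called genes with the smallest adjusted p were eligible for naming, or the 2 most abundant, of which some are not reported here. Alternatives were limma without trend, quantile and median ratio scaling, no filter, a minimum of 5, a pseudocount of 0.1, other sets of libraries, a block, a cardiac covariate and leaving out libraries.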

Additional observations from a re-analysis of the deposited data

How the results depend on the processing

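With 3 libraries a group, the precision of a fold change is set by the spread between libraries. For a gene that was not called, differences as large as the ends of its interval were not excluded. Over 20 alternatives a lung comparison had 4 to 6 members called in WT SuHx against normoxia, 0 in Ahr-KO against WT SuHx, and 4 to 7 in Ahr-KO SuHx against normoxia. ECs had 7 to 10 over 16 alternatives. In the main fits 13.5%, 0.499% and 9.75% of all genes were called in those lung comparisons, and 56.2% in ECs. Of 200 member values each, 187, 182 and 190 kept their direction and their side of the threshold in those lung comparisons, as did 152 of 160 in ECs. The cause of the changes below was not tested.

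Genes called in WT SuHx against normoxia numbered 2052, and 862 to 2380 with a library left out. Ahr-KO against WT SuHx had 76, and 47 without the trend, 49 with no filter, 126 with all 12 libraries in the fit, 25 with the cardiac covariate and 32 to 100 with a library left out. Ahr-KO SuHx against normoxia had 1485, and 583 with the cardiac covariate and 721 to 1882 with a library left out.

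Whether the suffix pairs libraries is not settled by these values. Deviations of same-suffix libraries correlated at -0.0402 to 0.216 over 9 pairs, and those of others at -0.200 to 0.181 over 18. The ranges overlap. Pairs of suffix 2 had 0.0934, 0.216 and 0.196. Pairs of suffix 1 had 0.0650, 0.157 and 0.0760, and pairs of suffix 0 had -0.0402, 0.0866 and -0.0154. With the replicate block the members called were 6 in WT SuHx against normoxia, where 3385 genes were called, 0 in Ahr-KO against WT SuHx (82 genes), 6 in Ahr-KO SuHx against normoxia (2171) and 9 in ECs (8559).

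Values that changed sign had not passed the test. For WT SuHx against normoxia, the log2 difference of Mylk was 0.0101 with median ratio scaling, 0.0115 without both libraries rich in cardiac RNA and -0.17 to 0.24 with a library left out, and that of Synpo2 was -0.52 to 0.0694. For Ahr-KO against WT SuHx, Myh11 was 0.0296 with quantile normalization, 0.22 without both libraries, 0.19 with the cardiac covariate and -0.27 to 0.22 with a library left out. With the covariate, Acta2 was -0.26, Actg2 -0.0809 and Des -0.27. With a library left out, Acta2 was -0.15 to 0.26, Actg2 -0.18 to 0.35, Lmod1 -0.0935 to 0.31 and Synpo2 -0.0321 to 0.62. Synpo2 was -0.20 to 0.34 in Ahr-KO SuHx against normoxia.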
